A study of Homo sapiens with 2 samples.

Results

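Eph receptors and ephrins of the intestinal crypt were examined in HT29 cells in which GATA6, a transcription factor with zinc fingers that acts in gut epithelium, had been silenced. The genes were the 10 symbols EPHA1, EPHA2, EPHA4, EPHB2, EPHB3, EPHB4, EPHB6, EFNA1, EFNB1 and EFNB2, taken by name, and 9 of them were found among the 13751 named genes of the array. EPHB2 was not matched to a probe set by the annotation used, so its expression was not analysed here. HT29 is an established human colon adenocarcinoma line. The cells had received a control siRNA in one sample and an siRNA against GATA6 in the other, with 1 Affymetrix array for each, and the only other difference in the labels is the word reanalyzed in the title of the control sample. The study's methods list more than 1 duplex against GATA6 and do not say which was used for the array, so loss of GATA6 and other effects of the duplex cannot be told apart. The sources used here do not give the time between transfection and RNA extraction.

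Eph receptors are receptor tyrosine kinases, and their ligands, the ephrins, are anchored in the membrane of the neighboring cell. EphA receptors mainly bind the ephrin-A ligands, which are held by a lipid anchor, and EphB receptors mainly bind the ephrin-B ligands, which span the membrane. Contact of receptor and ligand signals into both cells and commonly leads to repulsion. In the mouse intestine, EphB2 and EphB3 are targets of Wnt signaling in the proliferative crypt, whereas ephrin-B1 and ephrin-B2 mark the differentiated cells above, and this opposition keeps the compartments apart.

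The deposited values are taken as log2 values relative to the median of the 2 arrays. The value of a gene in the GATA6 siRNA array is therefore the mirror image of its value in the control array, and the level of expression is lost, so neither the expression of these genes nor the epithelial markers of HT29 could be checked from levels. A difference on the log2 scale is the value in the GATA6 siRNA array minus that in the control array. Genes were counted as lower or higher past 1.4-fold (0.49 on the log2 scale), the size in the study's methods. The study applied that size to decreases only, and here it was used in both directions. With 1 array per group there is no replicate check and no test, and the number of arrays limits the precision. The only spread within the arrays is that between probe sets of 1 gene, an SD of 0.19 over 470 genes with 2 probe sets. It is a loose guide, because such probe sets may measure different transcripts. Each Eph and ephrin gene was measured by 1 probe set. The siRNA target itself was at 0.58 in the control array and -0.58 in the GATA6 siRNA array, a difference of -1.15 that left 45.0% of the control value.

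In the GATA6 siRNA array a single gene of the set passed 1.4-fold, the receptor EPHB3, which was 1.69-fold higher, and none of the 9 genes was lower by over 1.4-fold. The other genes differed by 1.23-fold or less. Genes higher by over 1.4-fold made up 3.56% of all named genes and genes lower by over 1.4-fold made up 2.61%, and 1 of 9 corresponds to 11.1%, so the count rests on EPHB3 alone. Of the 9 genes, 6 had a difference above 0, 2 below and 1 at 0, with a median of 0.09 compared with 0 for all named genes. The median size of the difference, regardless of direction, was 0.18 for the 9 genes and 0.088 for all named genes. No set test was made.

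**Figure D1:**
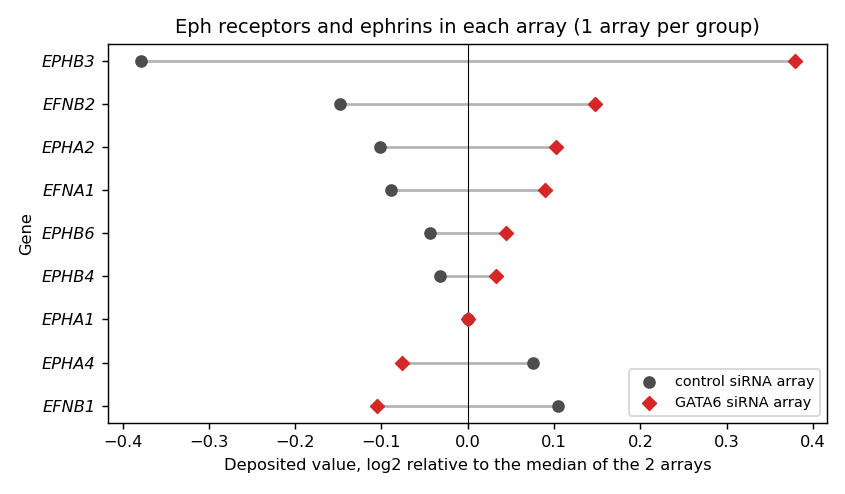
Deposited values of the 9 genes in both arrays, as log2 values relative to the median of the 2 arrays (x axis), with the control siRNA array as circles and the GATA6 siRNA array as diamonds. EPHB3 has the widest separation, from -0.38 to 0.38, while EPHA4 and EFNB1 are the genes with the higher value in the control array.

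Among the EphB receptors, EPHB3 had a value of -0.38 in the control array and 0.38 in the GATA6 siRNA array, a difference of 0.76. It ranked 126th from the highest of 13751 genes, and 1.59% of all genes differed by at least as much in either direction. The difference was 3.94 times the SD between probe sets, but it rests on 1 probe set. Among the genes with 2 probe sets, 42 had at least 1 past 1.4-fold, and in 1 of the 42 the other probe set also passed in the same direction. The other EphB receptors lay close to 0. EPHB4, the principal receptor of ephrin-B2 and known from the boundary of arteries and veins, went from -0.03 to 0.03, a difference of 0.07. EPHB6, a receptor without an active kinase domain, went from -0.04 to 0.04, a difference of 0.09. Differences of this size were common, with 59.1% of genes at or beyond that of EPHB4 and 49.9% at or beyond that of EPHB6. Within the same arrays, the difference of EPHB3 exceeded that of EPHB4 by 0.69 and that of EPHB6 by 0.67, quantities that do not depend on a constant shift between the arrays.

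Among the EphA receptors, EPHA2, a receptor of epithelial cells that is often abundant in carcinomas, was at -0.10 in the control array and 0.10 in the GATA6 siRNA array. Its difference of 0.20 (1.15-fold) was about the SD between probe sets, and 25.6% of all genes differed by at least as much. EPHA4, a receptor that binds ligands of both ephrin classes, pointed the other way, with 0.08 in the control array and -0.08 in the GATA6 siRNA array. Its difference of -0.15 (1.11-fold) was smaller than the SD between probe sets. EPHA1, the receptor that gave the Eph family its name, was listed at exactly 0 in both arrays, as were 443 (3.22%) of the named genes. Whether such a 0 is a measured equality or a floor in the authors' processing was not tested. Thus none of the EphA receptors of the set stood apart from the bulk of genes.

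The ligands did not share a direction. EFNB2, the ephrin-B2 gene, was -0.15 in the control array and 0.15 in the GATA6 siRNA array, a difference of 0.30 (1.23-fold higher) that 16.0% of genes matched or exceeded. EFNB1, the ephrin-B1 gene, went from 0.10 to -0.10, a difference of -0.21 (86.5% of the control value, with 24.7% of genes at least as far from 0). These 2 membrane-spanning ligands, which share EphB receptors, were therefore on opposite sides of 0 and lay 0.50 apart. EFNA1, the ephrin-A1 gene, which encodes a ligand of EPHA2 and is known as a gene induced by tumor necrosis factor, was -0.09 in the control array and 0.09 in the GATA6 siRNA array, a difference of 0.18 (1.13-fold). That was close to the difference of EPHA2. All 3 ligands remained short of 1.4-fold. Set against EPHB3, the difference of EFNB2 was smaller by 0.46 and that of EFNB1 smaller by 0.97, so the ratio of EPHB3 to EFNB1 signal was 1.96-fold higher in the GATA6 siRNA array than in the control array.

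**Figure D2:**
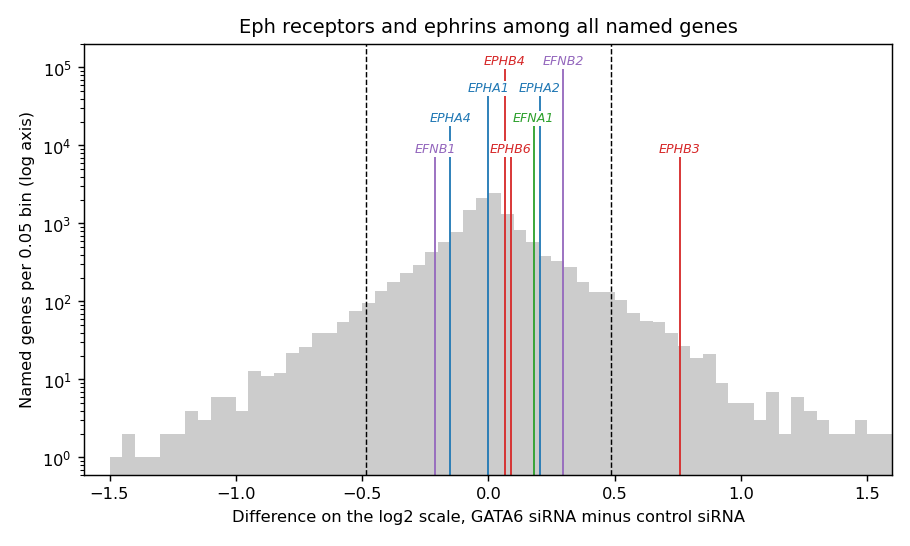
Histogram of the differences of all named genes on the log2 scale (x axis, bins of 0.05; number of genes on a log y axis), with lines for the 9 Eph and ephrin genes and dashed lines at 1.4-fold. EPHB3 at 0.76 is the only one of the 9 beyond a dashed line, and 14 named genes lie outside the plotted range of -1.6 to 1.6.

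The scaling of the arrays bears on the small differences. When the arrays were scaled so that 51 ribosomal protein genes had a median of 0, every difference gained 0.11 (the median of all named genes included), and EPHB3 was at 0.87, EFNB2 at 0.41 and EPHA2 at 0.32, while EFNB1 (-0.10) and EPHA4 (-0.04) kept values below 0 and EPHA1 moved to 0.11. With quantile normalization, EPHB3 was at 0.72 and EFNB1 at -0.23. EPHB3 was the only one of the 9 genes past 1.4-fold under each of these scalings.

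The rest of the Eph and ephrin family was examined to place these genes. All 12 further symbols were named on the array, and none passed 1.4-fold in either direction, with a median of -0.008. Over all 21 named Eph and ephrin genes, 4.76% were higher and 0% lower, beside 3.56% and 2.61% of all named genes. The further EphA receptors, many of them best known from the nervous system, spanned a narrow range, with EPHA8 (0.08), EPHA5 (0.06), EPHA6 (0.03), EPHA7 (0.00077), EPHA10 (-0.02) and EPHA3 (-0.06). EPHB1 was at 0.04. All 4 named EphB receptors therefore had differences above 0, as did 6637 of the 13751 named genes. EPHB3 alone passed 1.4-fold, and EPHB1, EPHB4 and EPHB6 had differences smaller than the SD of 0.19 between probe sets. The further ephrin-A ligands were more spread, with EFNA4 at 0.43 (1.35-fold higher), EFNA3 at -0.15, EFNA5 at -0.25 and EFNA2 at -0.32 (80.1% of the control value). EFNB3 was at -0.02. EPHA3, EPHA10 and EFNB3 turned to values above 0 when scaled on ribosomal proteins, and EFNA4 reached 0.54, past 1.4-fold, on that scale.

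**Figure D3:**
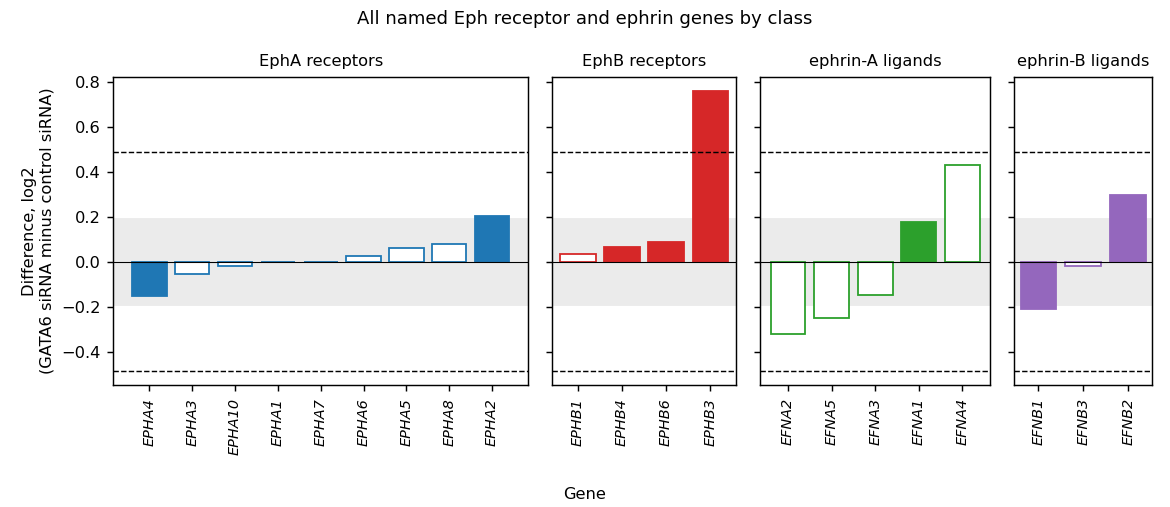
Difference on the log2 scale (y axis) of each of the 21 named Eph receptor and ephrin genes, grouped by class, with filled bars for the 9 genes of the crypt set and open bars for the other 12. Dashed lines mark 1.4-fold and the gray band marks the SD of 0.19 between probe sets of 1 gene; EPHB3 passes a dashed line and EFNA4 (0.43) comes nearest among the others.

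The genes of ephrin-A ligands, EFNA4, EFNA3 and EFNA1, follow each other in this order on chromosome 1 in the RefSeq annotation, and read-through transcripts join EFNA4 to both of its neighbors. Their differences of 0.43, -0.15 and 0.18 did not follow one direction. ADAM15, the metalloproteinase gene on the other side of EFNA4, was at -0.23. Whether signal is shared between these neighbors through read-through transcripts was not tested. On chromosome 7, EPHA1 lies between the focal adhesion gene ZYX (0.16) and the antisense transcript EPHA1-AS1, which overlaps its start and was at -0.0078. The antisense transcript of EPHA5, EPHA5-AS1, was at 0.07, close to the 0.06 of EPHA5.

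The sequences at the starts of these genes were read because GATA6 is a factor that binds DNA. The GATA-binding motif that the study used has 4 forms. These were AGATAA, the form with a different last base, AGATAG, the form with a different first base, TGATAA, and the form with both changes, TGATAG, and each was searched on both strands in the RefSeq promoter windows of build GRCh38.p14, from 250 bases before to 50 bases after each gene start. All 10 symbols of the set had at least 1 window (12 windows in all). A motif was present in 1 of these 12 windows, that of EPHB6, compared with 25.0% of all 35116 windows of that length. The windows of EPHB2 among the 12 overlap almost fully. The share over all windows was not matched for base content, which was 48% G and C in EPHB6 and 69% in EPHB3. The window of EPHB3, the gene with the largest difference of the set, held none of these letters, nor did that of EFNB1, the gene with the lowest. The core CTTTGA, bound by the TCF and LEF factors of Wnt signaling, was searched on both strands. It was found in 1 of the 12 windows, that of EPHA2, and in 12.9% of all windows. A match or its lack in so short a window is a description and does not show binding. The 3 windows are printed 5′ to 3′ on the strand of the gene, EPHB3 at chr3:184561535-184561834, EFNB1 at chrX:68828771-68829070 and EPHB6 at chr7:142862506-142862805, all on the plus strand, because they belong to the highest gene of the set, the lowest, and the only one with a motif. Capitals mark the motif, which in EPHB6 reads TTATCA, which is the third of these forms on the other strand, and lies at the upstream end of the window.
EPHB3: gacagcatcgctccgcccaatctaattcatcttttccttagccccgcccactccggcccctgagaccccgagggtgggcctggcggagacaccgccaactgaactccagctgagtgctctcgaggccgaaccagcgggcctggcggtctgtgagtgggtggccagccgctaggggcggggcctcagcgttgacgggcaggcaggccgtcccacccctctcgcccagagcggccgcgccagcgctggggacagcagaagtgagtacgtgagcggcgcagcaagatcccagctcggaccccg
EFNB1: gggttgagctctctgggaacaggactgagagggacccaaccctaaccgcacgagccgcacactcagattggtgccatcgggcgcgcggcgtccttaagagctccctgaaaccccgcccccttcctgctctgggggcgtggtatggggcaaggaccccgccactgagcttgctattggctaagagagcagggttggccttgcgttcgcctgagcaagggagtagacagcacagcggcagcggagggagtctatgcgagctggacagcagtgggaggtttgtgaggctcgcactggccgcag
EPHB6: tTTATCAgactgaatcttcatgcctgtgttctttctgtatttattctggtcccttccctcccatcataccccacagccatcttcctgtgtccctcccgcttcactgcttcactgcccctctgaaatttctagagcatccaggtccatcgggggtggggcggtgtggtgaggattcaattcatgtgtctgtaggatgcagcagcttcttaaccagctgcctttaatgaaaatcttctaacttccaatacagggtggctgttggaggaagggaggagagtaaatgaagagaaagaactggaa

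With 2 mirrored columns, the pattern of a gene is its difference alone. The genes most like EPHB3 were taken as those with the nearest difference among 146 named genes of the lists used here. Genes outside these lists were not candidates, so the kinds of gene found depend on how the lists were chosen. The nearest were RYK (0.76), SP5 (0.72) and AXIN2 (0.81). RYK is a Wnt receptor of the tyrosine kinase superfamily, SP5 a transcription factor and AXIN2 a negative feedback gene, the last 2 being common targets of Wnt signaling. A like difference in 1 pair of arrays is a likeness of size alone, and shared control was not tested.

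EPHB3 was next set beside other genes of the crypt and of Wnt signaling. Of 18 named members of that list, 6 were lower and 2 higher by over 1.4-fold (median -0.04). These were 33.3% and 11.1%, beside 2.61% and 3.56% of all named genes. The list was chosen with earlier results of these data known, so the shares describe the list and test nothing. The 2 higher genes were AXIN2 and SP5. The largest differences were those of the growth-promoting transcription factor MYC (-1.42), the Wnt antagonist DKK1 (-1.31), the chromatin protein CDCA7 (-1.16) and AXIN2. The remaining lower genes were the stem cell receptor LGR5 (-0.75), which the study places downstream of GATA6, the crypt transcription factor SOX9 (-0.73) and the adhesion receptor CD44 (-0.61). EPHB3 thus pointed with the 2 higher genes of the list and against the 6 lower ones, and LGR5 had about its size in the opposite direction. The other receptor tyrosine kinases gave a background for a receptor of this kind. Of 35 named genes in that list, 1 was higher and 0 lower by over 1.4-fold (median -0.01). RYK was the gene past 1.4-fold, and PTK7, a receptor-like protein of planar cell polarity, was second in size at 0.39. With the deposited scaling, EPHB3 and RYK were thus the 2 genes past 1.4-fold among the 56 named Eph, ephrin and other receptor tyrosine kinase genes. That is 3.57% higher, about the 3.56% of all named genes. EFNA4 and PTK7 joined them when scaled on ribosomal proteins.

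Partners of Eph signaling were examined by role. Of 22 named kinases and adaptors that act at the receptors, 0 passed 1.4-fold, with a median of 0.10, and 3 were higher when scaled on ribosomal proteins. The 2 largest differences were those of NCK2, an adaptor that links tyrosine kinases to actin (0.41), and SASH1, a scaffold protein (0.40).

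Of 11 named partners of the ephrin-B tail and of cell junctions, 0 passed 1.4-fold, with a median of 0.03, and 1 was higher when scaled on ribosomal proteins. The cell polarity protein PARD3 was at 0.44 and PICK1, a protein with a PDZ domain, at 0.20. Of 8 named genes of shedding and turnover, 0 passed 1.4-fold, with a median of 0.03, and 2 were higher on the ribosomal protein scale. NCSTN, a subunit of the gamma-secretase that cleaves ephrin-B and EphB stubs, was at 0.48, just short of the size, and the membrane metalloproteinase MMP14 was at 0.43. ADAM10, the protease that sheds ephrins, was at 0.0018. Of 13 named genes of differentiation and growth signals, 1 was lower and 2 higher, with a median of -0.12. They were FOSL1, an AP-1 factor (-0.61), SPDEF, a goblet cell factor (1.28), and DUSP6, a MAP kinase phosphatase (0.50). In the 6 lists beyond the Eph and ephrin genes, 7 of 107 named genes were lower (6.54%) and 5 higher (4.67%) by over 1.4-fold, with a median of 0. Of all named genes 2.61% were lower and 3.56% higher, and 6 of the 7 lower genes belonged to the crypt and Wnt list. When scaled on ribosomal proteins, 13 of them were higher and 7 lower.

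**Figure D4:**
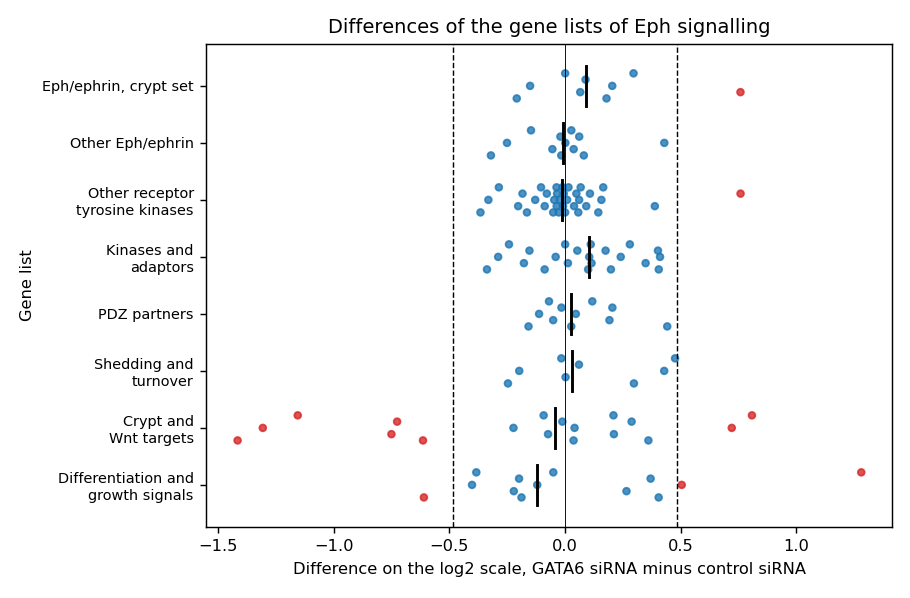
Differences on the log2 scale (x axis) of the named genes of each list (y axis), with 1 point per gene, a black bar at the median and dashed lines at 1.4-fold; points past 1.4-fold are red. The Eph and ephrin genes hold 1 red point, EPHB3, whereas the crypt and Wnt list holds 6 below and 2 above.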

How the data were processed

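Total RNA of the 2 HT29 samples was hybridized to Affymetrix Human Gene 2.0 ST arrays after labeling with the GeneChip WT PLUS kit. The authors deposited log2 values that they had evaluated in GeneSpring, centred for each probe set on the median of the 2 arrays. The base of the logarithm is not stated and was taken as 2. The sources used here do not state the summarization, normalization or filters, nor what the word reanalyzed in the title of the control sample refers to.

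Of 44629 probe sets, 15835 had 1 gene symbol in the platform annotation and were kept. The other 28794 had no symbol or several, and these 2 kinds were not counted apart. Probe sets of 1 gene were averaged, and 1061 small RNA genes were left out. Biotypes came from RefSeq, and so did the promoter sequences. Samples were grouped by the siRNA named in the labels. Differences were compared with a size of 1.4-fold, with Python 3.11.15 and pandas 2.3.3. That comparison alone was tried on shuffled differences of these arrays to which known shifts had been added. The alternatives were other scalings, other sizes and another choice among probe sets.

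The genes and the lists were chosen with earlier results of these data known. Named were GATA6, every Eph and ephrin gene found, and of each other list up to 4 genes past 1.4-fold, or the 2 farthest from 0 where fewer than 2 passed. The 3 genes nearest to EPHB3 were added. A further list of signaling genes is not reported here. LGR5, SOX9, CD44, ADAM10, ADAM15, ZYX and the antisense transcripts were named after their values were seen. VIL1, CDX1, CDX2 and GPA33 were also named beyond this rule.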

Additional observations from a re-analysis of the deposited data

How the results depend on the processing

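No paired analysis was possible because there was a single array per siRNA, and for the same reason no replicate could be left out. The median of the 9 Eph and ephrin genes was 0.088 with the deposited scaling and 0.086 with quantile normalization. When scaled on ribosomal proteins it was 0.20, where the median of all named genes was 0.11. That scaling adds the same amount to every gene, so it could not turn a median above 0. Setting the median of all named genes to 0 left it unchanged, because that median was already 0. Another choice among probe sets could not change it either, because each of the 9 genes had 1 probe set. GATA6 was between -1.29 and -1.04. With a 2-fold size, 0 of the 9 genes were higher, and with a 1.2-fold size 2 were, EPHB3 and EFNB2, while 0 were lower at either size. Over all named genes, 359 were lower and 489 higher at 1.4-fold, 33 and 50 at 2-fold, and 1190 and 1408 at 1.2-fold. When scaled on ribosomal proteins, 203 were lower and 810 higher, so that lower genes made up 20.0% of those past 1.4-fold in place of 42.3%. With quantile normalization that share was 50.8%, a near balance that mirrored columns favor. In the 6 pathway lists, 7 genes were lower and 5 higher at 1.4-fold, 3 and 1 at 2-fold, and 14 and 20 at 1.2-fold, and 13 were higher when scaled on ribosomal proteins. Signal over background could not be examined, because the values hold no levels.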

Other observations

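Markers of colon epithelium, a list without Eph or ephrin genes, had differences mostly above 0. Of 11 named markers, 5 were higher by over 1.4-fold and 0 lower, with a median of 0.36, compared with 3.56% and 2.61% of all named genes. The largest were those of CEACAM5, the gene of carcinoembryonic antigen (2.16), KRT20, a keratin of differentiated colon epithelium (1.89), CEACAM6, a related adhesion glycoprotein (1.51), and KRT19, a keratin of simple epithelium (0.54). In the same list VIL1 (0.02), CDX2 (0.02) and GPA33 (-0.04) lay close to 0, and CDX1 was at 0.11. This list too was chosen with earlier results of these data known. Markers of other cell types (fibroblast, vessel, blood, muscle and nerve) were represented by 8 named genes with a median of -0.03. Of these 8 genes, 0 passed 1.4-fold. The farthest from 0 were LYZ, the lysozyme gene (0.47), and DES, the desmin gene of muscle (-0.41).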
